A study of Mus musculus with 3 samples.

Results

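The colony-stimulating factors are secreted cytokines, and this account covers the 3 of them, Csf1, Csf2 and Csf3, with the 4 chains of their receptors, Csf1r, Csf2ra, Csf2rb and Csf3r. The members were taken by symbol, as every probe of these genes that is not a control, and they are 7 of 27670 gene names and 11 of 41174 probes. Of the 11 probes, 8 carry a member's symbol in the files and 3 carry Csf2rb1, an older name of Csf2rb. The mice were adult CD-1 females, and the tissue was the utero-tubular junction, where the uterus narrows into the oviduct. All females are described as being in estrous. Of the 3 groups, the first had not mated, the second had mated with vasectomized males, whose ejaculate lacks sperm, and the third had mated with normal males. Each group is 1 pool of total RNA from 10 females on 1 single-colour Agilent array, so the values compare 3 pools and hold no spread between animals. How long after mating the tissue was taken is not stated in the sources used here.

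Csf1 (M-CSF) binds Csf1r, a receptor tyrosine kinase that supports monocytes and macrophages. Csf2 (GM-CSF) acts on granulocytes, macrophages and dendritic cells through a receptor made of the chain Csf2ra, which gives specificity, and the common beta chain Csf2rb, which interleukins 3 and 5 share. Csf3 (G-CSF) drives the production and release of neutrophils through Csf3r, and the mouse uterus is known to make Csf2 in response to seminal fluid.

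Levels are given as a percentage of the 75th percentile of the signals on the same array, the value used to scale the arrays. They are compared across arrays for 1 probe. Sums over a marker list weigh bright probes most and describe the list on each array only. Of the spots that are not controls, 65.9% to 70.7% were well above background on each array. The vasectomized-mated array stood apart from the other 2: its 75th percentile signal was 295, where the not mated array had 874 and the normal-mated array 708, while its spike-in control probes were the brightest. Where a gene had several probes, their ratios to the not mated array disagreed by over 2-fold for 51.9% of genes on this array and for 11.9% on the normal-mated array. The probe nearest the 3′ end gave the higher ratio for 59.6% of genes in the former comparison and 51.6% in the latter. Scaling on the spike-in probes in place of the 75th percentile moved every measured log2 ratio by -2.60 for vasectomized mated versus not mated, by -0.38 for normal mated versus not mated and by 2.22 for normal mated versus vasectomized mated. The median of all genes compared then went from 0.18 to -2.49, from -0.05 to -0.45 and from -0.27 to 1.94. Of these comparisons, only normal mated versus not mated leaves out the vasectomized-mated array. The part of these array differences in the ratios was not tested. All 8 markers of the tissue, among them the oviduct glycoprotein Ovgp1 and the uterine homeobox gene Hoxa11, were well above background on the 3 arrays. Their levels differed: 2 were at least 2-fold higher and 2 lower after vasectomized mating, and 1 was higher and 3 lower after normal mating. Spike-in scaling gave 0 and 7, and 1 and 5. Beside these counts, 25.8% of all genes were higher and 16.5% lower after vasectomized mating, and 9.81% and 13.2% after normal mating. With spike-in scaling 87.1% and 24.0% of all genes were lower. After normal mating Hoxa11 had a log2 ratio of -3.52 and Hoxa10 of -2.89. After vasectomized mating the probes of Pax8 gave -3.76 and -0.72, and those of Esr1, counted as higher, gave 1.96 and -3.30. The probes of Pgr gave -1.35 and 1.12 there, and those of Ovgp1 0.44 and -2.99. The part of these differences in the member ratios was not tested.

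Csf2 and Csf3r were at least 2-fold higher after both matings under the 75th percentile scaling, while spike-in scaling put Csf3r at -0.25 after vasectomized mating and the bound of Csf2 at 0.73 after normal mating. Windows of 4 of the 7 genes (Csf1, Csf2, Csf2ra and Csf3r) were taken from the RefSeq promoter table of GRCm38.p6. That table had no entry for Csf3 and Csf2rb, and Csf1r was left out of the search. The windows of Csf2 and Csf3r are shown because these members were higher in both comparisons. Each run is the 250 bases before the start site, 5′ to 3′ on the strand of the gene. The Csf2 window is chr11:54249900-54250149 on the minus strand, and its capitals mark a match to the C/EBP letters TTGCNNAA, from 145 to 138 bases upstream. The Csf3r window is chr4:126024409-126024658 on the plus strand, and its capitals mark a match to the NF-kB consensus on the opposite strand, from 129 to 120 bases upstream.
Csf2: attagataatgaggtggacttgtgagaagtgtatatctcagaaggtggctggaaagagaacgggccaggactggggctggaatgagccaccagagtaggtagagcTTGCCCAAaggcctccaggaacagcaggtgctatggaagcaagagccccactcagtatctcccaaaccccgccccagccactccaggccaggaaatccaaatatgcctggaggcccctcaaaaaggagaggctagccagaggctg
Csf3r: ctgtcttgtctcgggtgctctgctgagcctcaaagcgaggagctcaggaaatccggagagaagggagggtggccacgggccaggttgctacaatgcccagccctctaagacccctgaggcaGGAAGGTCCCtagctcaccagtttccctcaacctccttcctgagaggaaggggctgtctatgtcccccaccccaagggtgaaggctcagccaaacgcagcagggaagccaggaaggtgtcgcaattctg

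Both strands were searched for 6 motifs, chosen after the ratios were known. The C/EBP letters are held by 9.58% of the 32544 promoter windows in the table and the NF-kB consensus by 7.28%. The Csf1 window also holds an NF-kB match, GGAAAGTCCC, from 154 to 145 bases upstream. The letters of the TATA box (TATAAA, in 12.3% of windows), AP-1 (TGANTCA, in 6.73%), PU.1 (GAGGAAGT, in 2.46%) and the CK-1 element of cytokine promoters (in 0.0369%) are not in the windows of the 4 genes. A match describes the letters only. The windows are placed by the outermost RefSeq start of each gene, and binding to them was not measured. Bases outside the windows, such as those next to any start further downstream, were not searched. A motif missing from a window may therefore still be in the promoter of the gene.

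Csf2 was the member with the widest range. Its probe lies at chr11:54204021-54204048 on the minus strand (mm7, per the file headers) and is printed 10 times on each array. Its level was 0.347% in the not mated pool, where no spot was well above background, 32.8% after vasectomized mating and 3.28% after normal mating. In raw signal the unflagged spots ran from 2.69 to 3.35, from 88.9 to 108 and from 19.1 to 26.7. The SD of the log2 signal between spots was 0.10 (n = 9 spots), 0.08 (n = 10) and 0.16 (n = 9), which covers hybridisation and scanning only. The 3 sets of spots did not overlap, and the vasectomized-mated array was the highest.

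Since the not mated value is below background, the Csf2 ratios to it are bounds, taken against the lowest signal well above background on that array. Csf2 was at least 21.7-fold higher after mating with vasectomized males (log2 4.44) and at least 2.17-fold higher after mating with normal males (1.11). With bounds counted, it had rank 93 of 19312 genes compared in the former and rank 1654 of 19304 in the latter. Under spike-in scaling the bounds became 1.83 and 0.73, and under normexp background correction 2.57 and 0.55, so the 2-fold call after normal mating was lost under each. Between the matings both levels were measured: Csf2 was 10.0-fold lower after normal mating than after vasectomized mating (log2 ratio -3.32), with a range of -3.32 to -2.02 over the other alternatives and -1.10 under spike-in scaling. Counted from the lowest ratio, it had rank 217 of 18990 genes.

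**Figure D1:**
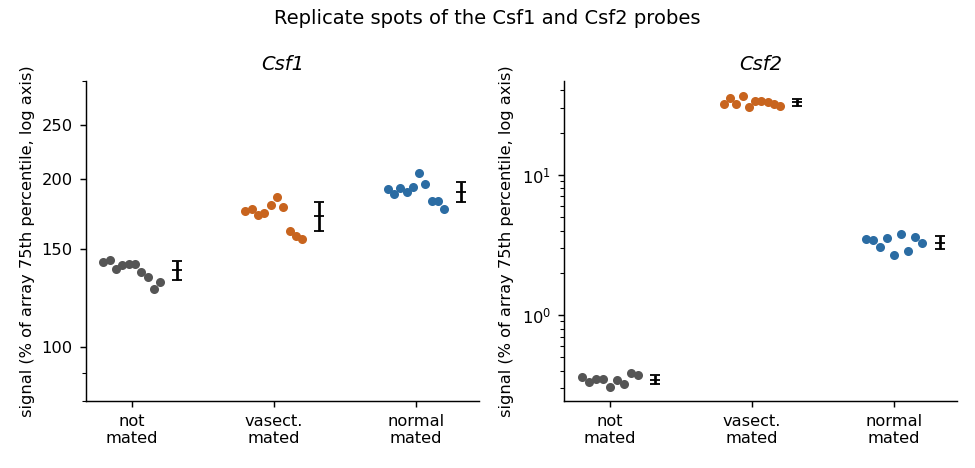
Signal of each unflagged replicate spot of the Csf1 and Csf2 probes, as a percentage of the 75th percentile of its array (log axes), on the arrays of the not mated, vasectomized-mated (vasect. mated) and normal-mated pools; the bars give the mean ± SD over spots of 1 array, on the log2 scale. The Csf2 spots form 3 separate sets near 0.347%, 32.8% and 3.28%, and the Csf1 spots of the 2 mated arrays overlap.

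Csf3 was also highest on the vasectomized-mated array. Its single spot, at chr11:98812339-98812398 on the plus strand (mm7), read 146% in the not mated pool, 557% after vasectomized mating and 207% after normal mating. The log2 ratio to not mated was 1.93 (3.82-fold) after vasectomized mating and 0.51 (1.42-fold) after normal mating. Normexp, quantile normalization, cyclic loess and median scaling put the former between 1.71 and 2.02, whereas spike-in scaling turned it to -0.67. The filters on dim probes and the mean of all probes cannot move a gene with 1 probe above background on every array. Csf3 was 2.69-fold lower after normal than after vasectomized mating (log2 ratio -1.43), and this too changed sign under spike-in scaling, to 0.79. Its raw signals were 1276, 1642 and 1469, before division by the 75th percentiles of 874, 295 and 708.

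Csf1 stayed within 2-fold. Its probe, at chr3:107559703-107559762 on the minus strand (mm7), is printed 10 times, and its level was 137% in the not mated pool, 172% after vasectomized mating and 190% after normal mating. The SD of log2 signal over the 10 spots was 0.06, 0.09 and 0.06. Spots ran from 127% to 144% on the not mated array, below all spots of the mated arrays, which overlapped each other. In raw signal they ran from 1113 to 1254, from 460 to 548 and from 1255 to 1455. The vasectomized-mated spots were thus the lowest before scaling, and the order depends on it. Spots of 1 array repeat 1 hybridisation and hold no spread between animals. The log2 ratio to not mated was 0.32 after vasectomized mating, turning to -2.28 under spike-in scaling, and 0.47 after normal mating, where it was 0.09 under spike-in scaling.

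Differences between 2 members on the same pair of arrays are the same under any scaling that moves all genes equally. Relative to Csf1, Csf2 was higher by at least 4.12 on the log2 scale after vasectomized mating and by at least 0.65 after normal mating. Normexp, which is not such a scaling and adds an offset of 50 to each signal, gave bounds of 2.32 and 0.10, and -2.22 between the matings. Such an offset shrinks the ratios of dim probes most. Csf3 was higher than Csf1 by 1.61 after vasectomized mating (1.46 with normexp), and after normal mating the ratios differed by 0.04. From vasectomized to normal mating, the ratio of Csf2 lay 3.47 below that of Csf1 (difference -3.47) and the ratio of Csf3 1.57 below it (-1.57). Thus the 3 ligands were ordered Csf2, Csf3, Csf1 after vasectomized mating, and Csf3 and Csf1 differed by less than the spot SD of Csf1 after normal mating. Each ligand has 1 probe. Where genes had several, their ratios after vasectomized mating differed by over 2-fold for 51.9% of genes. The part of such probe differences in this order was not tested.

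**Figure D2:**
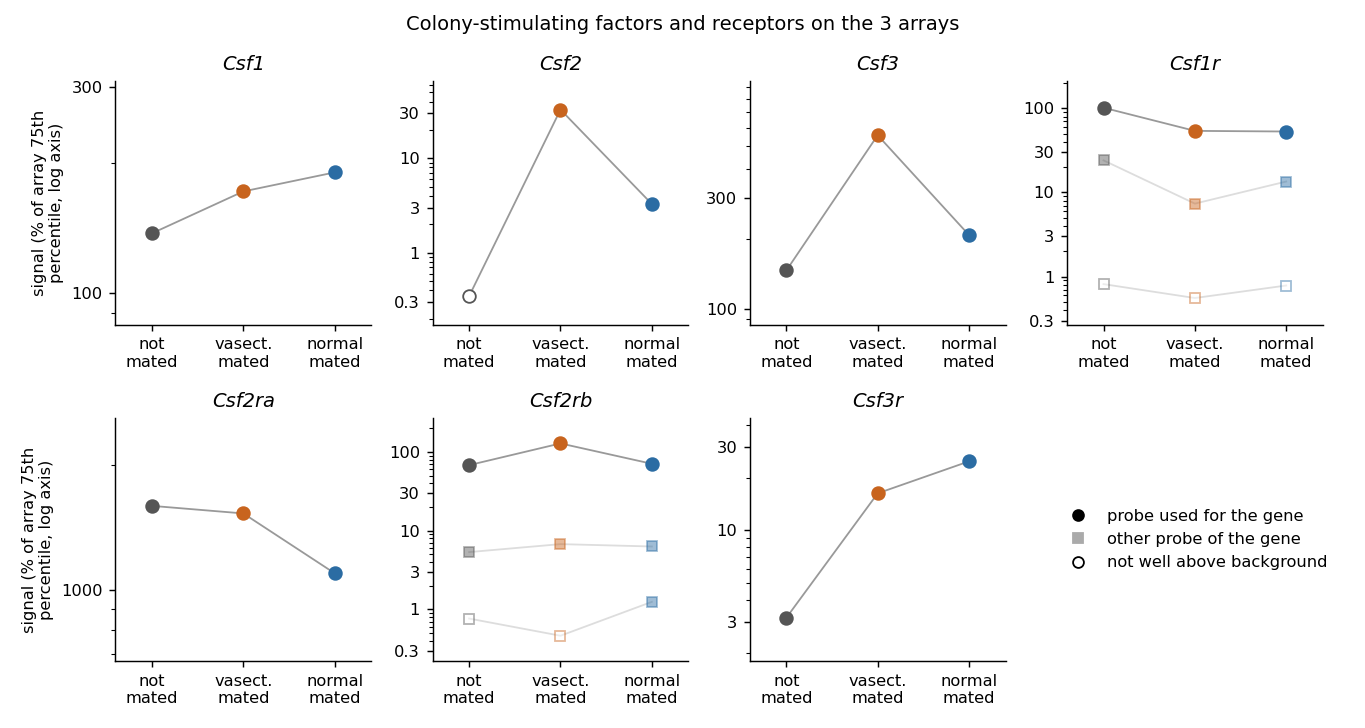
Level of each probe of the 7 genes on the 3 arrays, as a percentage of the 75th percentile of the array (log axes that differ between panels); circles are the probe used for the gene, squares its other probes, open symbols are not well above background, and lines join 1 probe. Csf2 and Csf3 are highest on the vasectomized-mated array and Csf3r on the normal-mated array, while Csf2ra stays between 1096% and 1592%.

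Among the receptors, Csf3r, which marks cells of the neutrophil line, was higher after both matings. Its single spot, at chr4:125488697-125488756 on the plus strand (mm7), read 3.17% in the not mated pool, 16.2% after vasectomized mating and 24.7% after normal mating, all well above background. The log2 ratio to not mated was 2.36 (5.13-fold) after vasectomized mating and 2.96 (7.81-fold) after normal mating, with ranks 1052 of 19312 and 199 of 19304. Spike-in scaling turned the former to -0.25 and left the latter at 2.58. After normal mating the other alternatives ranged from 1.68 to 3.22. Between the matings the ratio was 0.61, within 2-fold, with 0.03 under normexp and 2.83 under spike-in scaling. In whole tissue, more cells of a type and more RNA per cell cannot be told apart.

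Csf1r was lower on both mated arrays without reaching 2-fold on its brightest probe. That probe read 102% in the not mated pool, 54.0% after vasectomized mating and 53.1% after normal mating, which gives log2 ratios of -0.91 and -0.94 to not mated and -0.03 between the matings. Spike-in scaling gave -3.52, -1.32 and 2.20 on this probe, each past 2-fold. A second probe read 24.1%, 7.37% and 13.5%, with ratios of -1.71, -0.84 and 0.87, so the probes differed on the vasectomized-mated array. The remaining probe was not well above background on any array. For both comparisons with not mated, the 2 measured probes and each alternative run gave a ratio below 0. The ratio of Csf1 exceeded that of its receptor by 1.24 after vasectomized and 1.41 after normal mating.

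Both chains of the Csf2 receptor stayed within 2-fold of the not mated pool under the 75th percentile scaling; spike-in scaling put Csf2ra at -2.66 and Csf2rb at -1.69 after vasectomized mating. Cyclic loess and median scaling put Csf2rb just past 2-fold there (1.01 and 1.00), making 4 members higher, and the mean of all its probes put it at 0.18. Csf2ra, at chr19:61146986-61147045 on the minus strand (mm7), read 1592%, 1527% and 1096%, with log2 ratios of -0.06 after vasectomized mating and -0.54 after normal mating. The brightest probe of Csf2rb, at chr15:78433690-78433749 on the plus strand (mm7), read 68.1%, 129% and 70.9%, highest on the vasectomized-mated array. Its log2 ratio was 0.92 after vasectomized mating, and 0.06 after normal mating, where spike-in scaling gave -0.33. Another probe, at chr15:78429378-78429640, gave 0.34 and 0.24, and the third, at chr15:78431162-78431221, was above background on the normal-mated array only. Csf3r exceeded Csf2ra in ratio by 2.42 and 3.50, and Csf1r by 3.27 and 3.90, in the order vasectomized and normal mating. With normexp these were 1.75, 2.20, 2.39 and 2.54.

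Counted at 2-fold, 3 of the 7 members were higher after vasectomized mating (Csf2 as a bound, Csf3 and Csf3r), where 25.8% of all genes compared were higher, and 0 were lower, where 16.5% were. After normal mating 2 members were higher (Csf2 as a bound and Csf3r), against 9.81% of genes, and 0 were lower, against 13.2%. In normal against vasectomized mating 0 members were higher, against 14.7% of genes, and 2 were lower (Csf2 and Csf3), against 28%. The median log2 ratio of the members was 0.92, 0.47 and -0.48, beside 0.18, -0.05 and -0.27 over all genes compared. Under spike-in scaling 1 member was higher and 4 were lower after vasectomized mating, 1 was higher and 1 lower after normal mating, and 5 were higher and 1 lower between the matings. That scaling put 1.29% of all genes higher and 87.1% lower in the first, 6.51% higher and 24.0% lower in the second, and 79.9% higher and 1.21% lower in the last. The 3 comparisons share arrays, so these counts are not independent of each other. With 1 array per group there is no test of any of them.

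**Figure D3:**
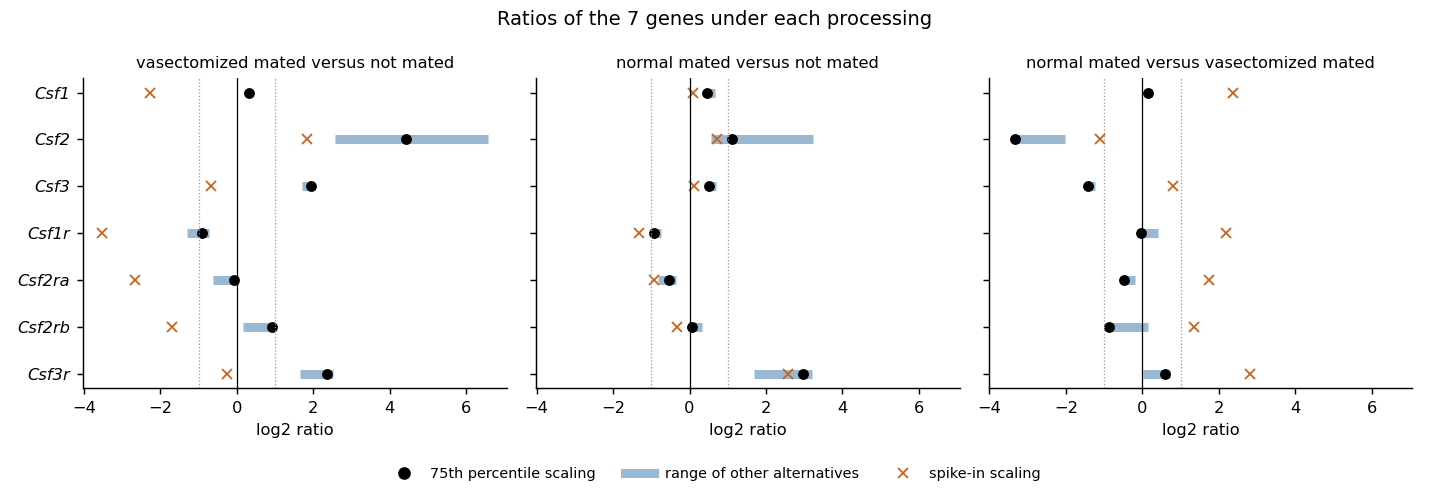
Log2 ratio of each of the 7 genes in the 3 comparisons: points give the 75th percentile scaling, bars the range over the other alternatives, crosses the spike-in scaling, and dotted lines 2-fold. Spike-in scaling puts Csf3 at -0.67 and Csf3r at -0.25 after vasectomized mating, while Csf3r after normal mating stays at or above 1.68.

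Il34, the second ligand of Csf1r (named 2010004A03Rik in the files), read 81.0%, 148% and 191%, with log2 ratios of 0.87 after vasectomized and 1.24 after normal mating, and spike-in scaling turned the former sign. Csf2rb2, the beta chain that serves interleukin 3 alone in the mouse, read 68.0%, 67.0% and 28.7% and was 2.37-fold lower after normal mating (-1.25). The ratio of Csf2rb exceeded that of Csf2rb2 by 0.94 and 1.30. Il5ra, the interleukin 5 receptor chain that pairs with Csf2rb, was above background only on the not mated array and was at least 2.47-fold and at least 5.22-fold lower on the mated arrays. Kit, the stem cell factor receptor, read 65.7%, 49.1% and 131%, a log2 ratio of 1.42 from vasectomized to normal mating. Il3, Il5 and Flt3 were not well above background on any array. In all, 0 of 7 related genes compared were higher and 1 was lower after vasectomized mating, and 1 was higher and 2 were lower after normal mating. Under spike-in scaling 0 were higher and 7 lower of 7, and 0 higher and 2 lower of 7. Over all genes, 25.8% were higher and 16.5% lower after vasectomized mating, and 9.81% and 13.2% after normal mating. Spike-in scaling put 87.1% and 24.0% of all genes lower.

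Among 12 cytokines that can induce the factors in other settings, 6 of the 11 compared were higher and 1 was lower after vasectomized mating, with a median log2 ratio of 1.65. Spike-in scaling gave 3 higher and 5 lower of 10, with a median of -1.42 beside -2.49 for all genes. After normal mating 4 were higher and 3 lower of 11, with a median of 0.36. Over all genes, 25.8% were higher and 16.5% lower after vasectomized mating, and 9.81% and 13.2% after normal mating. Il1b, an early inflammatory cytokine, read 6.95%, 500.1% and 269%, with ratios of 6.17 and 5.27. Tnf, another early inflammatory cytokine, had ratios of 4.20 and 4.65. These were high on both mated arrays.

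Il6, an inducer of the acute phase response, read 2.06%, 189% and 11.2%, with ratios of 6.52 and 2.44, and was lower after normal than after vasectomized mating by 4.07 (log2 ratio -4.07). Its order over the arrays was that of Csf2, and Csf3 and Il1b, among others, shared this order. Il33, an alarmin, had ratios of 2.55 and 0.71, and the shift under spike-in scaling, of -2.60, is larger than the former. Il1a was above background only on the mated arrays, where its bounds were 2.06 and 4.02. Tgfb2, a transforming growth factor present in many tissues, had a ratio of -2.03 after normal mating, and Ifng, the interferon of T and NK cells, one of -1.24 there and of -1.96 between the matings.

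Of 26 genes that transmit or restrain signals of these receptors, 8 of the 25 compared were higher and 4 lower after vasectomized mating (median 0.38), and 3 were higher and 2 lower after normal mating (median -0.06). Over all genes, 25.8% were higher and 16.5% lower in the former, and 9.81% and 13.2% in the latter. Spike-in scaling gave 0 higher and 21 lower of 25 after vasectomized mating, and 3 higher and 6 lower after normal mating, where 87.1% and 24.0% of all genes were lower. Socs3, a feedback inhibitor that binds Csf3r, read 219%, 1476% and 649%, with ratios of 2.75 and 1.57. Cish, a feedback inhibitor downstream of Stat5, read 339%, 1631% and 403%, with ratios of 2.27 and 0.25, and Socs1 had ratios of 2.22 and 0.38. Spike-in scaling, with its shift of -2.60 there, turned the vasectomized-mated ratios of Cish and Socs1 below 0. Jak2, the kinase bound to the Csf2 and Csf3 receptors, had ratios of -2.28 and -1.18 on the brighter probe and of -2.19 and -1.16 on the other. Pik3cg, a phosphoinositide kinase of leukocytes, was higher after normal mating (2.01), Lyn, a Src family kinase, was too (1.74), and Stat5a, a main transducer of Csf2, was lower there (-1.34).

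Of 9 factors that bind AU-rich or stem-loop elements of cytokine messages, 2 were higher and 2 lower after vasectomized mating (median -0.40), with 1 higher and 7 lower of 9 under spike-in scaling, and after normal mating 1 was higher and 0 lower (median 0.17), with 1 of each under spike-in scaling. Zc3h12a, the RNase regnase-1, was below background on the not mated array and at least 47.1-fold and at least 27.8-fold higher on the mated arrays. Rc3h1 and Elavl1 each had probes of opposite sign on the vasectomized-mated array, from -0.96 to 1.73 and from -1.23 to 0.69. Among transcription factors of myeloid cells, 2 of 10 were higher and 2 lower after vasectomized mating and 1 was higher and 1 lower after normal mating. Spike-in scaling gave 0 higher and 7 lower of 9, and 0 higher and 1 lower of 9. Beside both lists, 25.8% of all genes were higher and 16.5% lower after vasectomized mating, and 9.81% and 13.2% after normal mating. Spike-in scaling put 87.1% and 24.0% of all genes lower. Cebpd, a C/EBP factor, had a ratio of 1.26 after normal mating and Irf8, which directs monocyte fate, one of -1.12. Cebpb read 2.02 on one probe and -0.18 on another after vasectomized mating. Spi1, which encodes PU.1, was above background on the normal-mated array only.

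Markers of the cells that carry these receptors also differed between the arrays, and their part in the member ratios was not tested. Of the 15 neutrophil markers on the array, 7, 12 and 13 were well above background on the arrays in the order not mated, vasectomized mated and normal mated, and Elane and Ngp were on none. After vasectomized mating 11 of 12 compared were higher and 0 lower (median 3.24), and after normal mating 12 of 13 were higher and 0 lower (median 3.17). Under spike-in scaling these became 5 higher and 3 lower of 11 (median 0.69), and 9 higher and 0 lower of 13 (median 2.79). Over all genes, 25.8% and 9.81% were higher in the same order, and 1.29% and 6.51% under spike-in scaling. S100a9, a calprotectin subunit, read 11.2%, 8319% and 5570%, and Cxcr2, the neutrophil chemokine receptor, was at least 13.0-fold and at least 14.0-fold higher. The summed level of the list was 9689%, 14801% and 28687%. Ltf, lactoferrin, which uterine epithelium also makes, was at 9630%, 5788% and 22509%.

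All 17 monocyte and macrophage markers were well above background on every array, with summed levels of 7127%, 23126% and 15852%. Cd14 read 1783%, 6123% and 10809%, and was the largest part of the sum on the normal-mated array. After vasectomized mating 11 of the 17 markers were higher and 2 lower (median 1.58). This became 1 higher and 9 lower (median -1.02) under spike-in scaling. After normal mating 3 were higher and 3 lower (median -0.22), which became 2 and 7 (median -0.60) under that scaling. Beside these, 25.8% of all genes were higher and 16.5% lower after vasectomized mating, and 9.81% and 13.2% after normal mating. Spike-in scaling put 87.1% and 24.0% of all genes lower, with medians of -2.49 and -0.45. Adgre1, the macrophage antigen F4/80, read 153%, 2039% and 151%, while Cd68, a lysosomal protein of macrophages, read 67.8%, 93.1% and 521%, and so these defining markers peaked on different arrays. Mrc1, the mannose receptor, had ratios of 2.71 and 0.19, and Mertk, a receptor for dying cells, of -1.13 and -1.67. Dendritic cell markers summed to 404%, 1884% and 405%, with Clec9a, Cd209a and Siglech below background on all arrays. In that list 3 of 6 were higher and 0 lower after vasectomized mating (0 and 4 of 5 under spike-in scaling), and 0 were higher and 1 lower after normal mating (0 and 2).

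Markers of other cell types were measured in the same pools. Eosinophil markers summed to 7.19%, 31.3% and 7.71%, with Epx below background throughout. Ccr3, at log2 ratios of 3.67 and -0.67, made up 23.6% of the second sum. Ear1 had ratios of 0.84 and 0.72, and Prg2 was above background on the not mated array only. After vasectomized mating 1 of 2 compared was higher and 0 lower, and after normal mating 0 of 3 were higher and 0 lower. Spike-in scaling gave 1 higher and 2 lower of 3, and 0 higher and 2 lower of 3. Lymphocyte markers summed to 145%, 64.8% and 26.2%, and Cd79a was below background throughout. The sums were 63651%, 62704% and 93615% for epithelial, 26787%, 46571% and 13886% for stromal and muscle, and 1010%, 1645% and 320% for endothelial markers. After vasectomized mating 2 epithelial markers were higher and 2 lower of 8 (median -0.29), 1 stromal or muscle marker was higher and 2 lower of 8 (-0.44), and 1 endothelial marker was higher and 3 lower of 5 (-1.25). The higher one was Col3a1 (2.35, with probes from -0.01 to 3.45) in the stromal list. In the endothelial list it was Cdh5 (2.44, with -2.67 on its other probe). Under spike-in scaling 0 markers of the epithelial, the stromal and muscle, and the endothelial lists were higher, and 8, 7 and 4 were lower. After normal mating 4 of 8 epithelial markers were higher and 0 lower, 6 of 8 stromal and muscle markers were lower and 0 higher, and all 5 endothelial markers were lower. Under spike-in scaling these were 2 higher and 1 lower, 7 lower, and 5 lower. Over all genes, 25.8% were higher and 16.5% lower after vasectomized mating, and 9.81% and 13.2% after normal mating. Spike-in scaling put 87.1% and 24.0% of all genes lower. Hoxa11, a stromal marker of the uterus, had a ratio of -3.52 after normal mating. The part of these markers in the member ratios was not tested.

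**Figure D4:**
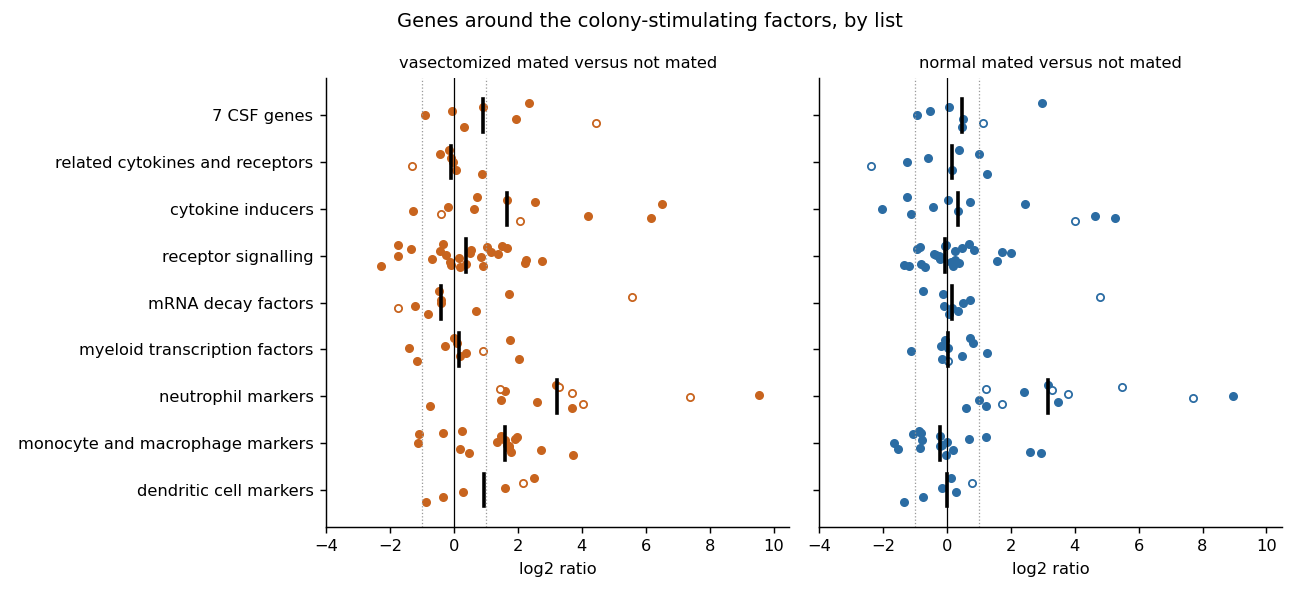
Log2 ratio to the not mated array of each gene compared, by list, after mating with vasectomized males and with normal males: filled points are measured, open points are bounds, black bars are list medians, and dotted lines mark 2-fold. Neutrophil markers have medians of 3.24 and 3.17, and monocyte and macrophage markers 1.58 and -0.22.

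The 3 levels of each member well above background on every array were also compared with those of 17200 other genes, after each gene's mean was subtracted. By Euclidean distance on the log2 scale, the nearest to Csf3r were Calr3 (0.03), Apol7a (0.10) and Cidea (0.13), and 17 genes lay within 0.25 of it. Far more genes lay within the same distance of the other members: 816 of Csf1, 408 of Csf3, 380 of Csf1r, 845 of Csf2ra and 965 of Csf2rb. The nearest to Csf1 were Map2k1, Fbll1 and Cnnm2, and to Csf3 Arfgef1, Morf4l2 and Prxl2c. Those of Csf1r were Copz2 and the transcripts TC1537584 and AK037143. Dgkd, Esam and NAP000001-074 were closest to Csf2ra, and Pex5l, Dynll2 and AK045702 to Csf2rb. With 3 arrays, and all patterns taken from the same 3 pools, such nearness is a description only. Csf2 was not compared, since it was below background on the not mated array.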

How the data were processed

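Total RNA from 3 pools of 10 females was labelled with Cy3 and hybridised to 1 array each, per the labels. The deposited files hold linear intensity, the gProcessedSignal column, from which Agilent Feature Extraction had subtracted background, with no scaling of one array to another, per the file headers. This software is version 10.5.1.1 in the file headers and 9.5.3 in the submitters' processing notes. All arrays lie on 1 slide and 1 scan. Each holds 45018 spots, of which 43379 are not controls. Spots flagged as outliers (69 to 98 per array) were left out, and none was saturated.

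From these deposited intensities log2 values were taken and the 75th percentile of each array subtracted, in R 4.3.3 with limma 3.58.1 and data.table (version 1.17.8). The later steps used matplotlib 3.10.9, pandas 2.3.3, numpy 2.4.6 and Python 3.11.15. Spots of a probe were averaged. Probes were named through RefSeq GRCm38.p6 (22944 by accession, 6664 by symbol, 3108 by synonym; 8458 kept the name in the files). A gene takes its brightest probe. Where 1 array was not well above background, the ratio is a bound, taken against the higher of the lowest signal well above background on that array and the probe's own value. Probe positions are those of the file headers' build, mm7; exons and UTRs were not analysed here. The counting step was run on simulated data with the noise between spots only. That run checks the code and bears on no count given here.

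The members, lists and alternatives were chosen with earlier results of these data known. Named genes are all members, up to 4 per list and comparison with the largest absolute log2 ratio, and the 3 nearest patterns of each member. Some genes are also given in a comparison for which the rule does not name them. Ovgp1, Spi1 and the list genes named as below background on all arrays lie outside the rule and were chosen after their values were seen, as were the 6 motifs. With 1 array per group no p-value was computed, and the number of arrays limits the precision. Alternatives were normexp correction (offset 50), 4 other scalings, 2 filters on dim probes, the mean of all probes and 2 fold thresholds.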

Additional observations from a re-analysis of the deposited data

How the results depend on the processing

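There is 1 array per group, so no array could be left out and no result has an error between animals. No paired analysis was possible because each group has 1 array and the labels pair no females. Of 60 member counts over the 10 alternatives, 46 stayed within 1.5 times the reported count and 14 did not. Spike-in scaling gave 1 member higher and 4 lower after vasectomized mating, 1 higher and 1 lower after normal mating, and 5 higher and 1 lower between the matings. It also turned the ratio of Csf3 after vasectomized mating to -0.67, that of Csf3r to -0.25 and that of Csf3 between the matings to 0.79. After vasectomized mating, the mean of all probes and a 1.5-fold threshold each gave 1 lower (Csf1r). After normal mating, normexp, detection on both arrays and a 3-fold threshold each gave 1 higher (Csf3r), and 1.5-fold gave 1 lower (Csf1r). Between the matings 1.5-fold gave 1 higher (Csf3r) and 3-fold 1 lower (Csf2). Of 166 single ratios, 90 moved by less than the spread between replicate spots. Many of these could not move, so the count is no measure of stability. The filters on dim probes change or drop only the Csf2 ratios to not mated. The mean of all probes can change only Csf1r and Csf2rb, the members with several probes. In all 13 changed sign, 9 of them under spike-in scaling, 2 under median scaling and 2 with the mean of all probes; 3 of the 13 were past 2-fold before, those given above. The cause was not tested, apart from the constant shift that spike-in scaling applies. The normexp offset of 50 shrinks the ratios of dim probes by design.

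The share of higher genes among all genes past 2-fold was 61.0% after vasectomized mating, 77.1% with normexp and 1.46% with spike-in scaling. After normal mating it was 42.6%, and 59.5%, 52.9%, 56.7% and 21.3% with normexp, cyclic loess, median and spike-in scaling. Between the matings it was 34.4%, with 22.8% without a filter on dim probes and 98.5% with spike-in scaling. Signal over background limits Csf2 on the not mated array, where the software's error was 98.7% of the signal.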
